A study of Mus musculus with 4 samples.

Results

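The data described here are the transcript levels of 10 genes of insulin and FOXO signalling in whole mouse kidney. They are the receptors Insr and Igf1r, the adaptors Irs1 and Irs2, the PI3-kinase regulatory subunit Pik3r1 and the kinase Akt2. The others are the transcription factors Foxo1 and Foxo3, the deacetylase Sirt1 and the IGF-binding protein Igfbp4. The 10 genes were chosen by symbol from the 32285 genes listed for each library, and all 10 were found. Single-cell RNA-Seq had been run on 4 libraries, 1 for each of 4 groups of male C3H mice, all 18 weeks old at harvest. WT-ND and WT-HFD came from mice with intact SGLT2, and SP-ND and SP-HFD from Sweet Pee (SP) mutants, whose Slc5a2, encoding the kidney glucose transporter SGLT2, has a missense mutation, not a deletion limited to the tubule. Mice received normal diet (ND) throughout, or for the last 8 weeks a high-fat diet (HFD) with 60% of calories from fat. The sources used here do not say how many animals went into a library. Each group is 1 library, so diet, genotype, animal and library preparation cannot be told apart, no test between groups was possible, and every interval below covers counting error only.

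Insulin and IGF-1 bind the receptor tyrosine kinases INSR and IGF1R, which phosphorylate the adaptors IRS1 and IRS2. The adaptors recruit PI3-kinase, of which PIK3R1 is the main regulatory subunit, and AKT kinases such as AKT2 then phosphorylate FOXO1 and FOXO3 and hold them out of the nucleus. FOXO factors switch on genes of fasting, stress defence and, in liver, Irs2 itself; SIRT1 deacetylates them, and IGFBP4 binds IGFs and limits their access to the receptor. In the kidney the pathway is known for restraining glucose production in the proximal tubule and for supporting sodium transport and podocyte survival.

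The 4 libraries held 13229 to 16385 barcodes and 90728590 to 115117649 UMIs (counted transcript molecules), and after filters on genes per barcode, mitochondrial share and doublets 32280 cells remained, 6389 to 9924 per library. Pairs of libraries shared 54 to 77 barcodes. Cells were clustered without the 10 genes and 71 further genes of the pathway, and named from marker genes, which gave 13 classes, called proximal tubule-like and so on. A cluster of 952 cells, 941 of them from WT-HFD, was kept apart from these classes as the PT-HFD candidate, described last. Levels are given as CPM, the UMIs of a gene per 1000000 UMIs of all cells of a class in a library. In proximal tubule-like cells Slc5a2 stood at 318 and 261 CPM in WT-ND and WT-HFD, and at 57.2 and 99.8 CPM in SP-ND and SP-HFD. These 3′ counts do not read the mutation itself. SP libraries also held less proximal tubule RNA in other cells: 12 proximal tubule markers made up 0.809% of the UMIs of podocyte-like, endothelial and immune cells of WT-ND, against 0.498% for WT-HFD, 0.175% for SP-ND and 0.191% for SP-HFD.

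Promoter sequence is shown for Irs2 and Sirt1, the members that stood higher on HFD in the same distal tubule classes of WT, and for Txnip, a FOXO target at its lowest in the proximal tubule-like cells of WT-ND. The 250 bases before each transcription start were read from RefSeq (GRCm38.p6), which had an entry for 9 of the 10 genes, all but Insr. These are reference sequences, not those of the C3H strain. Capitals mark CACGTG, the E-box read by basic helix-loop-helix factors, in Irs2 and Sirt1, and GTAAACA, the other strand of the forkhead motif TGTTTAC, in Txnip. Both strands were searched, CACGTG reads the same on both, and the motifs did not overlap.
Irs2 (chr8:11008930-11009179, minus strand): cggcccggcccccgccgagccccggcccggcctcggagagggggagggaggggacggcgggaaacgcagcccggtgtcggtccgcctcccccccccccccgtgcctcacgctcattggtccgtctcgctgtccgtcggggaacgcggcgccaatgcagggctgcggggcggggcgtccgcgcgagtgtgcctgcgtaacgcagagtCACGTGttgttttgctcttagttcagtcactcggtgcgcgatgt
Sirt1 (chr10:63339036-63339285, minus strand): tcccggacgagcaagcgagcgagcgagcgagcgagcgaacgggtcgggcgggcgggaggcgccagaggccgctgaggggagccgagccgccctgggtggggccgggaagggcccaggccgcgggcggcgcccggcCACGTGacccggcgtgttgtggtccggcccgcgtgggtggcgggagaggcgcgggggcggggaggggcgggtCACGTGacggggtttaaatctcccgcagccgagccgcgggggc
Txnip (chr3:96557707-96557956, plus strand): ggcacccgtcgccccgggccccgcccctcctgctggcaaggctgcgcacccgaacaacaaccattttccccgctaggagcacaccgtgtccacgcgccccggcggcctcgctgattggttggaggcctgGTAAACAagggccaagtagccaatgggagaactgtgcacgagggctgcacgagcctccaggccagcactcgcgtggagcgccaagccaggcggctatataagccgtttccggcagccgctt
The E-box begins 44 bases before the start in Irs2 and 115 and 43 bases before it in Sirt1. Irs1 holds one too, 115 bases before its start (chr1:82291440-82291689, minus strand), so 3 of the 13 windows of the members hold it, against 6.02% of all 32851 windows of 250 bases. TGTTTAC was in 3.17% of all windows and in none of those of the 9 members, and in Txnip it begins 121 bases before the start. Of the 18 FOXO target genes with an entry, which had 21 windows, 3 held it: Bcl2l11, Txnip and Trim63. The cAMP response element TGACGTCA, in 1.55% of windows, was found in no window of the members or of the pathway lists described below. A match of letters is a description and not a binding site.

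The genes differed in their order of classes, though some shared the highest class. Insr was highest in collecting duct principal cell-like cells, at 71.0 to 77.1 CPM over the 4 libraries, which did not overlap with the 55.1 to 63.8 CPM of endothelial cell-like cells next in order. Intercalated, distal convoluted or connecting tubule, mesangial or smooth muscle and proximal tubule-like cells followed with ranges that overlap from one to the next. Within the principal cell-like class, Insr was 80.9 to 84.0 CPM in the cluster led by Krt15 and 32.8 to 59.7 in the one led by Aqp4. The lead of the class thus came from the Krt15-led cluster. Igf1r had another order. Among the named classes it was highest in neutrophil-like cells (261 to 427 CPM, from 35 to 55 cells a library). Thin limb-like (165 to 201), proximal tubule-like (136 to 181) and podocyte-like cells (145 to 187) came next, and these 3 overlap. An unnamed cluster led by Ubd, C3 and Wfdc16 had 201 to 308 CPM of Igf1r. Intercalated cell-like cells, which had 46.8 to 56.3 CPM of Insr, had 36.4 to 41.6 CPM of Igf1r, below the 79.1 to 80.9 CPM of endothelial cell-like cells.

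The 2 adaptor genes were split between cell classes. Irs1 was highest in intercalated cell-like cells, at 96.6 and 60.9 CPM in WT-ND and WT-HFD, and 94.1 and 89.1 in SP-ND and SP-HFD. The next class, podocyte-like cells, had 17.1 to 32.4 CPM and overlapped with none of these. Within the intercalated class, the cluster led by Slc26a4, the chloride-bicarbonate exchanger pendrin of type B cells, had 137 and 78.2 CPM in WT-ND and WT-HFD, and 134 and 153 in SP-ND and SP-HFD. The cluster led by Slc4a1, the anion exchanger of type A cells, had 41.1 to 56.9 CPM and so lay below it in every library. In proximal tubule-like cells Irs1 was almost absent: 15, 11, 5 and 12 UMIs in the 4 libraries gave 0.361 to 1.47 CPM.

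Irs2 UMIs were found in every class and library, with 2 to 10 a library in neutrophil-like cells. Podocyte-like cells (35.7 to 104 CPM), principal cell-like cells (34.3 to 88.6) and mesangial or smooth muscle cell-like cells (39.9 to 105) led the order of classes and overlapped, while endothelial cell-like cells lay at the bottom with 3.49 to 5.80 CPM, below the proximal tubule-like cells (7.17 to 24.3). Within intercalated cells the pattern was opposite to that of Irs1, with 53.1 to 63.4 CPM of Irs2 in the Slc4a1-led cluster and 21.7 to 27.9 in the Slc26a4-led one. The ranges of the 2 clusters do not overlap for either gene. By cluster, the B cells led by Ighd, Ms4a1 and Fcmr had the highest level, at 109 to 368 CPM from 10 to 40 UMIs a library, while plasma cells of the same class had 8.13 to 11.7.

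Downstream, among the named classes Pik3r1 was highest in T cell-like cells (199 to 270 CPM), below an unnamed cluster led by Ptn, Sfrp2 and Itga8 (466 to 520 CPM), and apart from thick ascending limb-like cells (88.3 to 144) and the classes after them. Akt2 was highest in podocyte-like cells (78.3 to 89.0 CPM), apart from neutrophil-like cells (30.7 to 66.2). Foxo1 was highest in endothelial cell-like cells, at 92.4 to 130 CPM against 38.9 to 52.4 in T cell-like cells. By cluster, the B cells led by Ighd had 54.3 to 86.8 CPM of Foxo1. They overlapped with the endothelial clusters led by Esm1 (76.7 to 113) and Cytl1 (67.4 to 128), not with the one led by Sapcd1 (122 to 157). Foxo3 led in neutrophil-like cells (66.2 to 107), then in distal convoluted or connecting tubule-like cells (52.7 to 64.3) and thick ascending limb-like cells (47.7 to 52.5), and no 2 neighbours of these overlap. Sirt1 was low in all classes, with T cell-like cells at 24.2 to 46.7 CPM and proximal tubule-like cells last at 10.9 to 13.1. The Ighd-led B cells had 12.4 to 62.7 CPM of Sirt1. Among the named classes Igfbp4 was highest in proximal tubule-like cells (195 to 359 CPM), which overlapped with endothelial cell-like cells (147 to 207). By cluster its highest level was in the small endothelial cluster led by Cytl1, Fbln2 and Fbln5. That cluster had 1309 and 761 CPM in WT-ND and WT-HFD, and 1040 and 1470 in SP-ND and SP-HFD. The unnamed cluster led by Ptn, Sfrp2 and Itga8 followed with 594 to 839 CPM, also above the proximal tubule-like cells.

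**Figure D1:**
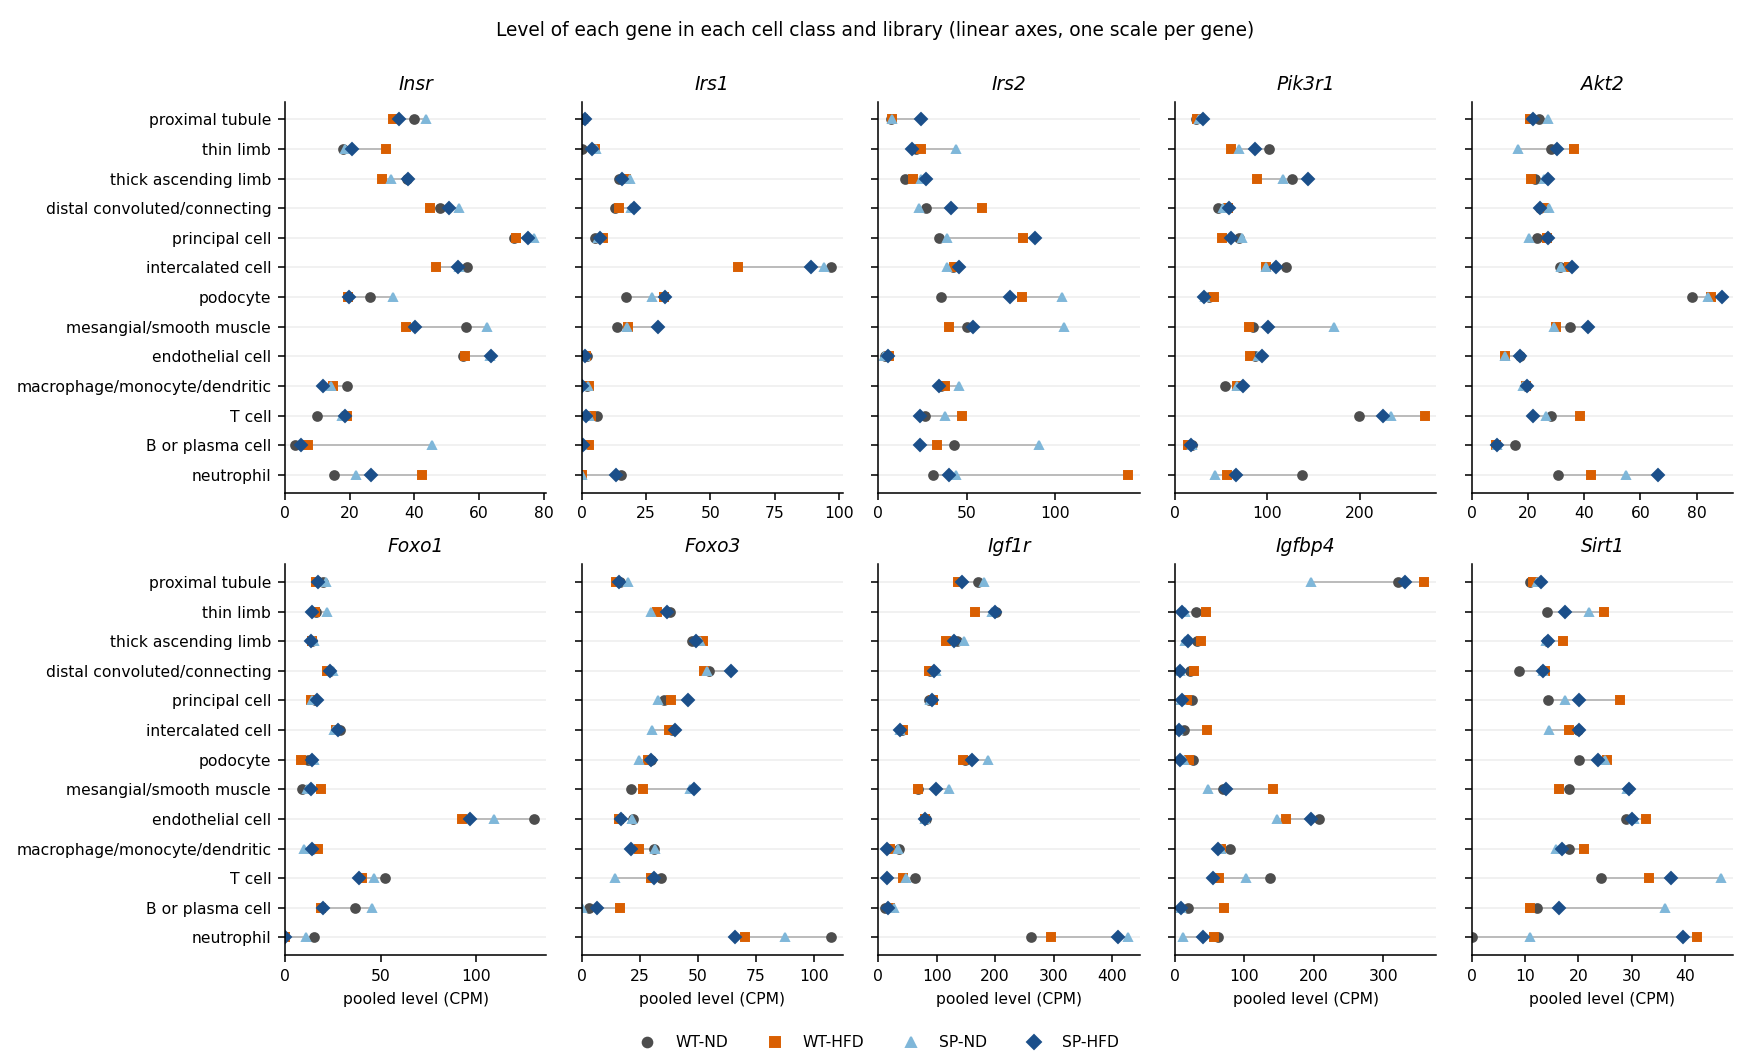
Pooled level of each of the 10 genes in CPM (linear horizontal axes, a scale for each gene) in 13 cell classes, with 1 point per library and a grey line over the range of the libraries. Irs1 stands out in intercalated cells, Foxo1 in endothelial cells and Akt2 in podocytes.

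Across the 52 combinations of class and library with at least 30 cells, the genes whose levels ran most like each member were found by Pearson correlation of log2(CPM + 1) among 9968 genes. Libraries of a class share its cells' identity, so the points are not independent and the values describe likeness only. The closest were Calml4 (r = 0.92) and Fmo1 (0.83) for Igfbp4, Pcna (0.88) and Maz (0.86) for Sirt1, Ctsd (0.86) and Slc27a4 (0.81) for Foxo3, and Clstn1 (0.85) and Pank3 (0.80) for Insr. Rb1cc1 (0.83) and Gadd45a (0.81) ran with Akt2, Tcf3 (0.82) and Actl6a (0.81) with Foxo1, Dtna (0.81) and Cyp2s1 (0.81) with Irs1, and Nisch (0.78) and Grina (0.75) with Igf1r. Pik3r1 (Fam189b 0.73, Gm20186 0.72) and Irs2 (Nr4a1 0.62, Dock8 0.59) had no closer gene. Between members, the correlations ran from -0.55 for Irs2 with Igfbp4 to 0.54 for Akt2 with Igf1r.

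For comparisons between libraries, a ratio was read where a class had at least 30 cells in each library and the gene at least 30 UMIs over both. A gene is called 1.5-fold apart where the ratio was at least 1.5-fold and its exact 95% counting interval left out equality. HFD against ND in WT gave 111 readings of a member in a class: 9 (8.11%) were at least 1.5-fold higher on HFD and 4 (3.60%) lower, against 5.98% and 7.09% of all genes read in these classes. In SP the same diet comparison gave 6 higher and 7 lower of 104, against 4.77% and 5.53%. Mutant against WT gave 9 higher (9.28%) and 7 lower (7.22%) of 97 on ND, against 3.64% and 4.01%, and 3 higher (2.65%) and 11 lower (9.73%) of 113 on HFD, against 4.57% and 5.54%. Of the lower readings in SP, all 7 on ND and 8 of the 11 on HFD were Igfbp4, and 4 of the 9 higher ones on ND were Irs2 and 4 came from mesangial or smooth muscle cell-like cells, with Irs2 in those cells counted in both.

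Irs2 was higher on HFD in the distal nephron of both genotypes. In principal cell-like cells it stood at 34.3 and 81.6 CPM in WT-ND and WT-HFD, and 38.8 and 88.6 in SP-ND and SP-HFD, so both HFD libraries lay above both ND libraries. The log2 ratio of HFD over ND stood at 1.25 (interval 0.91 to 1.6) in WT and 1.19 (0.89 to 1.49) in SP. The difference was larger in the cluster led by Krt15, with 27.0, 81.1, 28.4 and 80.6 CPM in the order WT-ND, WT-HFD, SP-ND, SP-HFD; the cluster led by Aqp4, a basolateral water channel, had 62.4, 82.5, 74.7 and 109 CPM, and its HFD ratios stayed under 1.5-fold. Clustering without integration of the libraries left the class readings under 1.5-fold, at 0.44 in WT and 0.57 in SP, but the class was then the Aqp4-led cluster alone, with 379 cells. Kcne1, Npy6r and Grem1 are among the top genes of the 1677 cells of the Krt15 cluster here. Without integration they were among those of a cluster led by S100g and named as distal convoluted or connecting tubule. A finer clustering gave 0.69 in WT. In this class 6.48% of genes in WT and 5.46% in SP were at least 1.5-fold higher on HFD.

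Distal convoluted or connecting tubule-like cells also had both HFD libraries above both ND libraries, with 27.0 and 58.6 CPM in WT-ND and WT-HFD, and 22.9 and 41.2 in SP-ND and SP-HFD. The log2 ratio came to 1.12 (0.81 to 1.43) in WT and 0.85 (0.51 to 1.19) in SP, and it was past 1.5-fold in both genotypes in each of the 2 clusters of the class, led by Pvalb and by Slc8a1. Without integration the ratios were 1.31 and 1.10, in a class that then held the S100g-led cluster. Intercalated cell-like cells, next to these in the same ducts, had 38.9 to 45.7 CPM in all 4 libraries with no ratio past 1.5-fold.

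Irs2 ran most like Nr4a1, an early response gene that tissue dissociation also induces, so the summed level of 12 early response genes was read beside it. In principal cell-like cells this sum was 6072 and 5920 CPM in WT-ND and WT-HFD, and 5087 and 6113 in SP-ND and SP-HFD. It was higher on HFD in SP alone. In distal convoluted or connecting tubule-like cells it was 726, 1554, 1002 and 1157 CPM and was higher on HFD in both genotypes, as Irs2 was. The part of these genes in the Irs2 difference of either class was not tested.

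In proximal tubule-like cells Irs2 was high in 1 library. This class leaves out the PT-HFD candidate, whose 941 cells of WT-HFD had 21.9 CPM of Irs2. The WT-HFD values here thus hold for its 1066 proximal tubule-like cells only. WT-ND had 7.17 CPM (151 UMIs), WT-HFD 7.55 (113), SP-ND 7.88 (109) and SP-HFD 24.3 (199 UMIs, in 148 of 618 cells and at most 4 in a cell). The log2 ratio of HFD over ND stood at 1.63 (1.28 to 1.98) in SP and 0.07 (-0.29 to 0.44) in WT, and that of SP over WT on HFD was 1.69 (1.35 to 2.03). Of the 9 members read in this class, Irs2 and Igfbp4 were at least 1.5-fold higher on HFD in SP and 0 lower, against 9.2% and 7.37% of all genes, and 0 were higher or lower in WT, against 8.71% and 5.03%. On HFD, Irs2 alone was higher in SP than in WT, against 2.54% of all genes, and 0 were lower, against 1.32%. The level in SP-HFD was high in both large proximal tubule clusters: HFD over ND in SP was 1.26 (0.82 to 1.71) in the one led by Slc5a12, a lactate transporter of the early tubule, and 2.15 (1.54 to 2.78) in the one led by Slc7a13, a late-tubule amino acid transporter. Without a cluster of 81 cells led by Cyp7b1, 54 of them from SP-HFD, the class ratio was 1.61. The 12 early response genes summed to 204, 230, 352 and 243 CPM in the same order of libraries, with SP-ND highest. Markers of cells outside the proximal tubule summed to 978 to 1052 CPM in the 4 libraries. Of these 133 markers, 17 to 29 were at 0. The part of early response genes, or of RNA or cells of other classes, in the Irs2 level of SP-HFD was not tested.

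Podocyte-like cells gave a different order for Irs2, with WT-ND alone low: 35.7 and 81.1 CPM in WT-ND and WT-HFD, and 104 and 74.5 in SP-ND and SP-HFD. The log2 ratio of HFD over ND stood at 1.18 (0.79 to 1.59) in WT and -0.48 (-0.79 to -0.17) in SP, and SP over WT was 1.54 (1.15 to 1.95) on ND and -0.12 on HFD. Early response genes summed to 6106, 7414, 7528 and 4936 CPM there, higher in WT-HFD and SP-ND than in WT-ND as Irs2 was, and lowest in SP-HFD where Irs2 was not; their part was not tested.

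SP-ND also had the highest Irs2 in mesangial or smooth muscle cell-like cells (49.9, 39.9, 105 and 53.6 CPM) and in thin limb-like cells (21.1, 24.1, 44.0 and 18.8 CPM). In both classes SP-ND was at least 1.5-fold above WT-ND and above SP-HFD. Early response genes summed to 6705, 3064, 5400 and 4198 CPM in the first and 15118, 5745, 10888 and 7619 in the second. Their sum was highest in WT-ND in both, and their part was not tested. In thick ascending limb-like cells SP over WT on ND was 0.69 (0.34 to 1.05), from 15.0 to 24.1 CPM. Over all kept cells Irs2 was 17.2, 28.5, 26.3 and 35.8 CPM, a mixture of class levels and class sizes in which fewer cells of a class and less RNA per cell cannot be told apart.

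**Figure D2:**
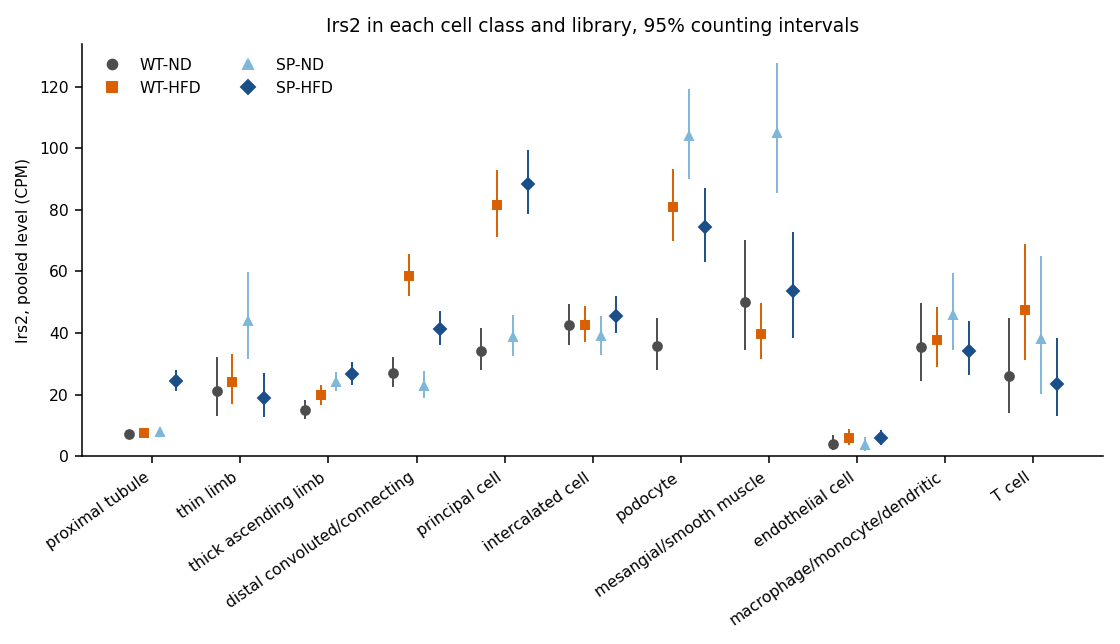
Irs2 in CPM (vertical, linear axis from 0) in 11 cell classes, with points for the 4 libraries and bars for exact 95% Poisson counting intervals. Both HFD libraries are above both ND libraries in distal convoluted or connecting tubule and principal cells. SP-HFD alone is high in proximal tubule-like cells, which leave out the PT-HFD candidate of WT-HFD.

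The receptors in proximal tubule-like cells lay a little lower on HFD in both genotypes, within 1.5-fold. Igf1r was 171 and 136 CPM in WT-ND and WT-HFD, and 181 and 144 in SP-ND and SP-HFD, so both HFD libraries were below both ND libraries. HFD over ND stood at -0.33 (-0.41 to -0.25) in WT and -0.34 (-0.44 to -0.24) in SP on the log2 scale, and it was below 0 in both large proximal tubule clusters, at -0.42 and -0.26 in WT and -0.41 and -0.26 in SP. Insr gave 40.0, 33.3, 43.5 and 35.2 CPM in the same order of libraries, with ratios of -0.26 (-0.43 to -0.10) and -0.31 (-0.51 to -0.10). In cells with under 30% mitochondrial UMIs, Insr in WT was at -0.01 (-0.27 to 0.25) and in SP at -0.31, while Igf1r was at -0.34 and -0.35.

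Foxo1 in these cells was 19.9, 16.5, 21.6 and 17.5 CPM, with HFD over ND at -0.27 (-0.50 to -0.04) in WT and -0.31 (-0.60 to -0.01) in SP. Akt2, at 24.0, 20.9, 27.1 and 21.8 CPM, had -0.20 (-0.41 to 0.01) and -0.32 (-0.58 to -0.06). Foxo3, Pik3r1 and Sirt1 had diet intervals that reached across 0 in both genotypes. The median ratio of all genes read in the class was 0.04 in WT and 0.02 in SP, and that of the 9 members read was -0.16 and -0.28. SP over WT for Insr, Igf1r, Akt2, Foxo1, Foxo3, Pik3r1 and Sirt1 ran from 0.09 to 0.27 on ND and from 0.06 to 0.34 on HFD, all under 1.5-fold, where the median of all genes was 0.08 and 0.06.

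**Figure D3:**
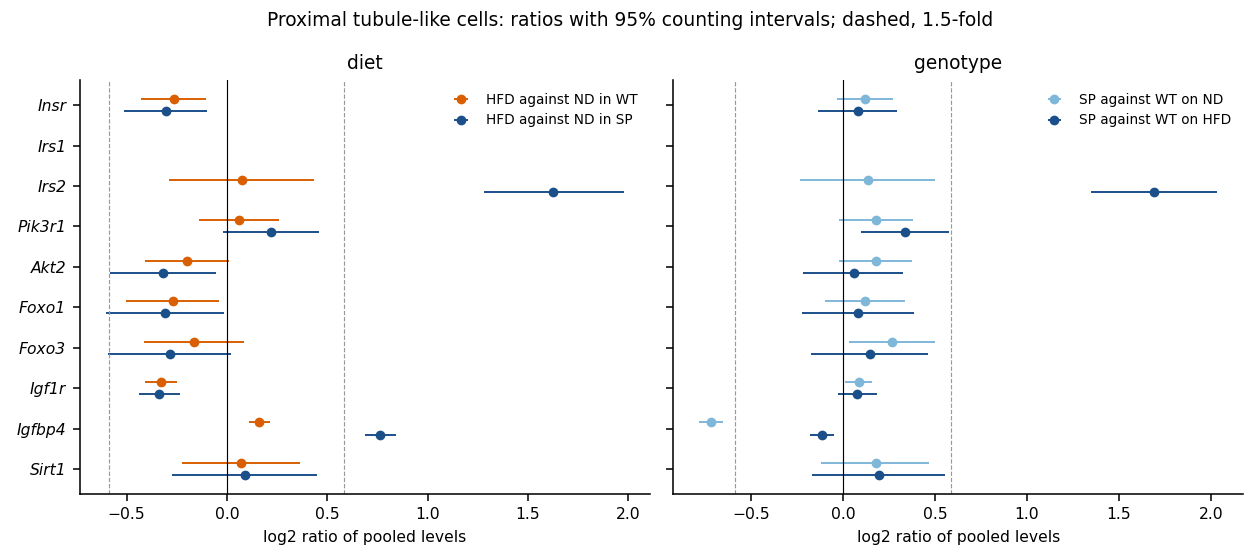
Log2 ratios of pooled levels (horizontal axis) for the members in proximal tubule-like cells, HFD against ND on the left and SP against WT on the right, with exact 95% counting intervals and dashed lines at 1.5-fold; Irs1 had too few UMIs. Irs2 in SP-HFD and Igfbp4 in SP-ND are the members past 1.5-fold, and Igf1r and Insr lie below 0 for diet in both genotypes.

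Outside the proximal tubule, few readings of the receptors passed 1.5-fold between diets. Igf1r was at least 1.5-fold lower on HFD in macrophage, monocyte or dendritic cell-like cells of both genotypes, at 35.5 and 19.2 CPM in WT-ND and WT-HFD, and 34.2 and 14.6 in SP-ND and SP-HFD. The log2 ratios were -0.88 (-1.63 to -0.14) and -1.22 (-1.99 to -0.48). This was 1 of 13 classes read in WT and 1 of 12 in SP, where 6.37% and 6.96% of that class's genes were as far lower. Insr passed 1.5-fold in a single reading, lower on HFD in podocyte-like cells of SP (33.3 to 19.8 CPM, log2 ratio -0.75, -1.35 to -0.16).

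Irs1 was lower in intercalated cell-like cells of WT-HFD than of WT-ND (log2 ratio -0.67, -0.89 to -0.44), the other 3 libraries lying between 89.1 and 96.6 CPM. Clustering without integration of the libraries gave -0.36, and leaving out the Slc26a4-led cluster gave -0.43, so the reading is under 1.5-fold in both. That cluster held 376 cells of WT-HFD and 148 to 231 of each other library, and in WT-HFD it had 70.3 CPM of Igfbp4 against 3.75 to 8.99 in the others. In podocyte-like cells Irs1 ran like Irs2 in WT, at 17.1 CPM in WT-ND against 31.8 in WT-HFD (0.89, 0.30 to 1.52) and 27.1 in SP-ND (0.66, 0.02 to 1.32), with 32.4 in SP-HFD.

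Pik3r1 in thick ascending limb-like cells was 127 and 88.3 CPM in WT-ND and WT-HFD, and 117 and 144 in SP-ND and SP-HFD. WT-HFD was the lowest and SP-HFD the highest, and SP over WT on HFD was 0.71 (0.57 to 0.85). HFD over ND stood at -0.53 (-0.67 to -0.38) in WT and 0.31 (0.19 to 0.42) in SP, neither past 1.5-fold. In thin limb-like cells it was 101, 61.0, 69.4 and 86.3 CPM, with -0.73 (-1.15 to -0.32) for diet in WT, where the median of all genes was -0.12.

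Sirt1 was at least 1.5-fold higher on HFD in WT in 2 of the 3 classes where Irs2 was. Principal cell-like cells had 14.3 and 27.9 CPM in WT-ND and WT-HFD, and 17.4 and 20.1 in SP-ND and SP-HFD, and the log2 ratio in WT was 0.97 (0.41 to 1.55), but 0.03 (-1.0 to 1.11) when cells were clustered without integration and the class was the Aqp4-led cluster alone. Distal convoluted or connecting tubule-like cells had 8.80, 13.8, 13.3 and 13.4 CPM, with 0.65 (0.08 to 1.24) for diet in WT and 0.60 (0.01 to 1.20) for SP over WT on ND, so WT-ND was the low library. Foxo1 passed 1.5-fold in no class and no comparison. Foxo3 passed it in B or plasma cell-like cells and in mesangial or smooth muscle cell-like cells. The latter had 21.2 and 26.6 CPM in WT-ND and WT-HFD, and 46.8 and 48.2 in SP-ND and SP-HFD. SP over WT there was 1.14 (0.25 to 2.12) on ND and 0.86 (0.21 to 1.50) on HFD. Of all genes read in that class, 7.11% were at least 1.5-fold higher in SP on ND and 26.4% on HFD.

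Mesangial or smooth muscle cell-like cells gave 4 members at least 1.5-fold higher in SP-ND than WT-ND: Irs2 (1.07), Pik3r1 (84.8 to 172 CPM, 1.02), Igf1r (68.1 to 121 CPM, 0.82) and Foxo3 (1.14), against 7.11% of the 6243 genes read there and a median ratio of 0.09. This class joins a cluster led by Myh11 with one led by Ren1, of which 314 of 465 cells came from WT-HFD, and on HFD its median ratio of SP over WT over all genes was 0.34. B or plasma cell-like cells had median ratios as far from 0 as -0.95, with 39 cells in SP-ND. They joined a plasma cell cluster with a B cell cluster in unlike shares, so their 4 readings past 1.5-fold (Irs2, Foxo3 and Igfbp4) are given as counts. For HFD against ND, 1 of 6 members read was higher in WT, against 6.31% of all genes of the class. In SP 1 of 5 was lower, against 41.2%. For SP against WT on HFD 2 of 8 were lower, against 24.2%. Akt2 passed 1.5-fold once, in thin limb-like cells of SP (16.5 to 30.5 CPM, 0.89, 0.02 to 1.83). T cell-like cells gave Irs2 and Igf1r lower in SP-HFD than in WT-HFD, at 23.3 against 47.4 CPM and 15.6 against 42.1.

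Igfbp4 was lower in SP in most classes on both diets. In proximal tubule-like cells it was 321 and 359 CPM in WT-ND and WT-HFD, and 195 and 332 in SP-ND and SP-HFD, so SP-ND alone was low. SP over WT was -0.72 (-0.78 to -0.65) on ND and -0.11 (-0.18 to -0.05) on HFD, and HFD over ND stood at 0.76 (0.69 to 0.84) in SP and 0.16 (0.11 to 0.21) in WT. Both large clusters gave the SP-ND difference, at -0.63 and -0.84. The 12 proximal tubule markers summed in these cells to 71476 and 65197 CPM in WT-ND and WT-HFD, and 36041 and 62171 in SP-ND and SP-HFD, so they too were low in SP-ND, and Igfbp4 UMIs per 100 marker UMIs were 0.449, 0.550, 0.542 and 0.533 in the same order.

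On ND, Igfbp4 was at least 1.5-fold lower in SP in 7 of 11 classes read, and its ratio was below 0 in all 11. On HFD it was so in 8 of 12, with 1 ratio above 0, in endothelial cell-like cells. Distal convoluted or connecting tubule-like cells had 21.4 and 27.7 CPM in WT-ND and WT-HFD, and 6.65 and 7.46 in SP-ND and SP-HFD, with SP over WT at -1.68 (-2.31 to -1.09) on ND and -1.89 (-2.44 to -1.37) on HFD. Thick ascending limb-like cells had 31.5, 37.6, 14.5 and 19.3 CPM, and principal cell-like cells 24.1, 17.5, 9.29 and 9.43. In these classes both SP libraries lay below both WT libraries. Without integration the readings on HFD were under 1.5-fold or had intervals reaching 0 in 6 of the 8 classes, with -0.28 (-0.61 to 0.04) in thick ascending limb-like cells, -0.47 in principal cell-like, -0.56 in thin limb-like, -0.43 in podocyte-like, -0.71 (-1.44 to 0.02) in intercalated and -0.35 in mesangial or smooth muscle cell-like cells. On ND only the principal cell-like reading (-0.36) of the 7 did so. The principal cell-like readings here come again from the Aqp4-led cluster alone.

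The proximal tubule markers, which these classes should lack, were lower in SP as well, and their part in the Igfbp4 difference was not tested. They summed in distal convoluted or connecting tubule-like cells to 4313 and 3722 CPM in WT-ND and WT-HFD, and 894 and 1149 in SP-ND and SP-HFD. Igfbp4 UMIs per 100 marker UMIs were 0.495, 0.744, 0.743 and 0.649 there, near the 0.449 to 0.550 of proximal tubule-like cells, and 0.510, 0.812, 1.03 and 0.610 in principal cell-like cells. Thick ascending limb-like cells had 0.630, 0.939, 1.72 and 1.46. Endothelial cell-like cells had 2.48, 4.76, 7.58 and 8.86, and their Igfbp4 was 207 and 160 CPM in WT-ND and WT-HFD, and 147 and 196 in SP-ND and SP-HFD, with no ratio past 1.5-fold. T cell-like cells had less on HFD in both genotypes (137, 63.2, 102 and 54.5 CPM), and mesangial or smooth muscle cell-like cells more (69.6, 141, 47.8 and 73.7 CPM). In the latter class the Myh11-led cluster had 47.7 to 89.0 CPM of Igfbp4 and the Ren1-led cluster 51.7 to 209. Of the Ren1-led cluster, 314 of 465 cells came from WT-HFD. Intercalated cell-like cells had 13.5, 46.0, 4.77 and 6.41 CPM of Igfbp4; their higher level on HFD in WT (1.76, 1.32 to 2.23) was -0.39 when cells were clustered without integration and 0.01 without the Slc26a4-led cluster.

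**Figure D4:**
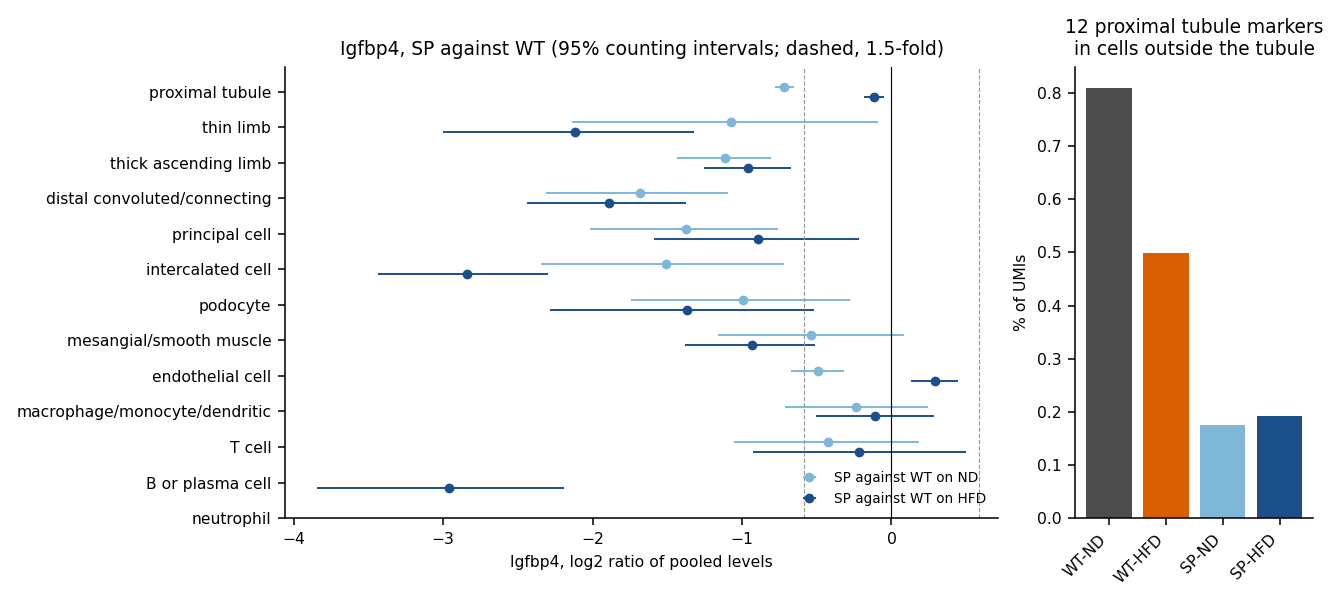
Left, log2 ratio of Igfbp4 in SP over WT (horizontal axis) by cell class on ND and on HFD, with exact 95% counting intervals and dashed lines at 1.5-fold. Right, share of UMIs (%, bars from 0) that 12 proximal tubule markers take in podocyte-like, endothelial and immune cells of each library. Both SP libraries are lower than both WT libraries there, and the part of this in the Igfbp4 ratios was not tested.

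The rest of the pathway was read in proximal tubule-like cells from lists of 71 further genes. This class lacks the candidate cluster described last, so each WT-HFD level and ratio given for the lists leaves that cluster out. Of the 17 FOXO targets read of 20, 5 were at least 1.5-fold higher in SP-ND than in WT-ND and 0 lower, where 4.89% of all genes were higher and 3.06% lower, with a list median of 0.33 against 0.08 for all genes. They were Txnip, an inhibitor of glucose uptake and thioredoxin, Pdk4, which shuts pyruvate out of the mitochondrion, Cited2, a transcription coregulator, and the stress-response sestrins Sesn1 and Sesn3; Cited2, Sesn1 and Sesn3 fell outside the rule for named genes and are named after their values were seen. Txnip, whose promoter is shown above, was 7.6 and 18.5 CPM in WT-ND and WT-HFD, and 17.6 and 17.0 in SP-ND and SP-HFD. Within this class only WT-ND was low, as it was for Cited2 with 26.7, 43.6, 49.9 and 46.6 CPM. The candidate cluster had more Txnip than any of these libraries, as given below, so the WT-HFD level depends on leaving it out. Txnip was highest in endothelial cell-like cells, at 1021 to 1404 CPM, far above its level in proximal tubule-like cells.

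Pdk4 instead was high within the class in SP-ND alone, at 2.80, 2.00, 6.07 and 1.71 CPM (SP over WT on ND 1.12, 0.62 to 1.62). The candidate cluster, left out here, had more Pdk4 than any of these libraries, as given below. For HFD against ND the list gave 3 higher (Txnip, Cited2 and Klf2) and 2 lower in WT, and 0 higher and 3 lower in SP, where 8.71% and 5.03% of all genes were higher and lower in WT, and 9.2% and 7.37% in SP. Bcl6, a transcriptional repressor named after its values were seen, was lower on HFD in both genotypes, at 59.3, 29.2, 55.6 and 29.6 CPM, with ratios of -1.02 (-1.18 to -0.86) and -0.91 (-1.13 to -0.70). On HFD, SP against WT gave 1 higher and 1 lower. Klf2, a shear-responsive factor highest in T cell-like cells (1346 to 2160 CPM), was at least 1.5-fold higher on HFD in 6 of 13 classes in WT and in 0 of 13 in SP, against 5.98% and 4.77% of all genes; the difference between genotypes was not tested.

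Catalase (Cat), highest in proximal tubule-like cells at 355 to 514 CPM, Gabarapl1, an autophagy gene highest in distal convoluted or connecting tubule-like cells (793 to 1311 CPM), and Ppargc1a, the regulator of mitochondrial biogenesis highest in thick ascending limb-like cells (243 to 332 CPM), stayed within 1.5-fold between libraries in proximal tubule-like cells. On HFD they were at least 1.5-fold lower in SP than in WT in 4 of 12, 3 of 12 and 3 of 10 classes, and higher in none, where 5.54% of all genes read over the classes were lower and 4.57% higher. These 3 genes were named because they passed in 3 or more classes in 1 direction. Their counts are thus high by choice beside those shares, and no conclusion is drawn from the difference. Proximal tubule markers in other cells were lower in SP-HFD too, as given above, and their part in the Cat counts was not tested.

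Of the 16 other adaptors, PI3K subunits and kinases, 12 were read in proximal tubule-like cells and Sgk1 alone passed 1.5-fold. Sgk1, the aldosterone-induced kinase that shares substrates with AKT, was 10.2 and 5.48 CPM in WT-ND and WT-HFD, and 55.9 and 9.16 in SP-ND and SP-HFD. SP-ND was high, with SP over WT on ND at 2.46 (2.24 to 2.69). HFD over ND stood at -2.61 (-2.97 to -2.27) in SP and -0.89 (-1.28 to -0.52) in WT. The lower level in WT-HFD holds for the class without the candidate cluster. Sgk1 in that cluster was above every library here, as given below, and a WT diet ratio that includes it was not tested. Across classes Sgk1, highest in endothelial cell-like cells (629 to 878 CPM), was at least 1.5-fold higher in SP-ND than in WT-ND in 5 of 10 classes and in WT-HFD than in WT-ND in 6 of 12, against 3.64% and 5.98% of all genes read over the classes. Early response genes were also at their highest in SP-ND in proximal tubule-like cells, as given above, and their part was not tested.

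Among 13 brakes on the pathway, 2 of 11 read were at least 1.5-fold higher on HFD in WT and 2 of 10 in SP, with 0 and 2 lower, against 8.71% and 9.2% of all genes higher and 5.03% and 7.37% lower. Trib1, a pseudokinase, was higher on HFD in both genotypes, at 1.28, 3.47, 1.73 and 5.87 CPM, with 1.44 (0.74 to 2.17) and 1.76 (1.02 to 2.53), and its highest class was neutrophil-like cells. Socs3, a cytokine-induced inhibitor of IRS proteins, was 0.902, 2.34, 0.650 and 0.733 CPM and higher in WT-HFD alone. Trib2 was 23.0, 25.3, 17.5 and 31.2 CPM and higher on HFD in SP (0.83), and Grb10, an inhibitory adaptor, and Phlpp2, a phosphatase of AKT, were lower on HFD in SP (-0.79 and -0.85).

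The list of other IGF-binding proteins also held Igfals and the protease gene Pappa. Of its 8 genes 6 were read for WT diet, with 1 higher and 0 lower, against 8.71% and 5.03% of all genes. Diet in SP gave 0 higher and 1 lower of 5, against 9.2% and 7.37%. SP against WT on ND gave 2 higher and 1 lower of 6, against 4.89% and 3.06%. On HFD it gave 0 higher and 2 lower of 6, against 2.54% and 1.32%. The calls rested on low levels. Pappa, the protease that cuts IGFBP4, was 0.997, 1.20, 3.90 and 1.59 CPM in proximal tubule-like cells, with SP over WT on ND at 1.97 (1.22 to 2.77), and its highest class was principal cell-like cells (178 to 286 CPM). Igfbp3 was 0.570, 1.80, 1.37 and 0.611 CPM, against 490 to 834 in endothelial cell-like cells, and was higher in WT-HFD (1.66) and SP-ND (1.27) than in WT-ND and lower in SP-HFD than in WT-HFD (-1.56). Igfbp1 was lower in SP on ND (-0.76) and Igfals in SP on HFD (-0.65). Igfbp5 and Igfbp7 passed 1.5-fold between libraries in other classes only. Of 7 other FOXO and sirtuin genes read, Sirt4 (5.65 to 9.15 CPM, 0.70) and Sirt6 (2.85 to 1.6 CPM, -0.83) passed 1.5-fold on HFD in WT. The shares of all genes there were again 8.71% higher and 5.03% lower, and no gene of this list passed in the 3 other comparisons. Of the ligands and other receptors 1 or 2 of 6 could be read and none passed.

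The study describes a further group of proximal tubule cells in mice on HFD. Among clusters of at least 1% of cells in which proximal tubule markers stood on average above the rest of the kidney, the one with the highest relative level of markers listed for that group, led by Hsd11b1, Ccl28 and Lypd2, was taken; 7 clusters of thin limb and distal classes, outside this limit, had higher relative levels of the same markers. In the chosen cluster itself these markers stood on average slightly below the rest of the kidney, at a mean log2 ratio of -0.09. The cluster held 952 cells, 941 of them from WT-HFD, and the naming rule left it unnamed. Without integration the cluster chosen in this way held 2788 cells, 2730 of them from WT-HFD, so its extent depends on the clustering. It is called the PT-HFD candidate here, and since nearly all of it is 1 library, the cell group and the library cannot be told apart. Against the proximal tubule-like cells of WT-HFD, 4 of the 10 members were at least 1.5-fold higher and 2 lower, where 25.5% of all genes were higher and 11.8% lower. The 133 markers of cells outside the proximal tubule summed there to 9901 CPM with 5 at 0, against 1052 CPM with 19 at 0 in the proximal tubule-like cells of that library, the largest sums being those of thick ascending limb (2663) and distal convoluted or connecting tubule (2583), and its 12 proximal tubule markers summed to 36993 CPM against 65197. The part of RNA or cells of other classes in what follows was not tested.

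Irs1, nearly absent from proximal tubule-like cells (0.735 CPM), was 11.1 CPM in the candidate (log2 ratio 3.91, 3.01 to 4.96). Irs2 was 21.9 against 7.55 CPM (1.54, 1.19 to 1.89), Foxo3 31.0 against 14.7 (1.08, 0.81 to 1.34) and Pik3r1 37.2 against 24.2 (0.62, 0.40 to 0.84). These 4 genes have higher levels in distal tubule classes than in the proximal tubule. Insr also had higher medians in principal (73.4 CPM), intercalated (53.6) and distal convoluted or connecting tubule-like cells (49.3) than in proximal tubule-like cells (37.6). In thick ascending limb-like cells the median of Insr was 35.3, and Insr was not higher in the candidate. Igf1r was lower at 83.8 against 136 CPM (-0.70, -0.83 to -0.58) and Igfbp4 at 197 against 359 (-0.87, -0.95 to -0.79), while Igfbp4 per 100 proximal tubule marker UMIs was 0.532 against 0.550. Insr (-0.30), Akt2 (0.16), Foxo1 (-0.08) and Sirt1 (-0.25) stayed within 1.5-fold.

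Among the lists, 8 of 17 FOXO targets were higher in the candidate and 3 lower, with Txnip at 195 against 18.5 CPM, Klf2 at 82.4 against 6.75 and Pdk4 at 13.4 against 2.00. Of 14 adaptors, PI3K subunits and kinases read 6 were higher and 0 lower, Sgk1 at 62.9 against 5.48 CPM among them. Of 11 brakes 3 were higher and 1 lower, with Socs3 at 24.3 against 2.34 CPM and Trib1 at 23.3 against 3.47. In this comparison 25.5% of all genes were higher and 11.8% lower, and the counts of the brakes lay near these shares. Early response genes summed to 1887 CPM against 230.

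**Figure D5:**
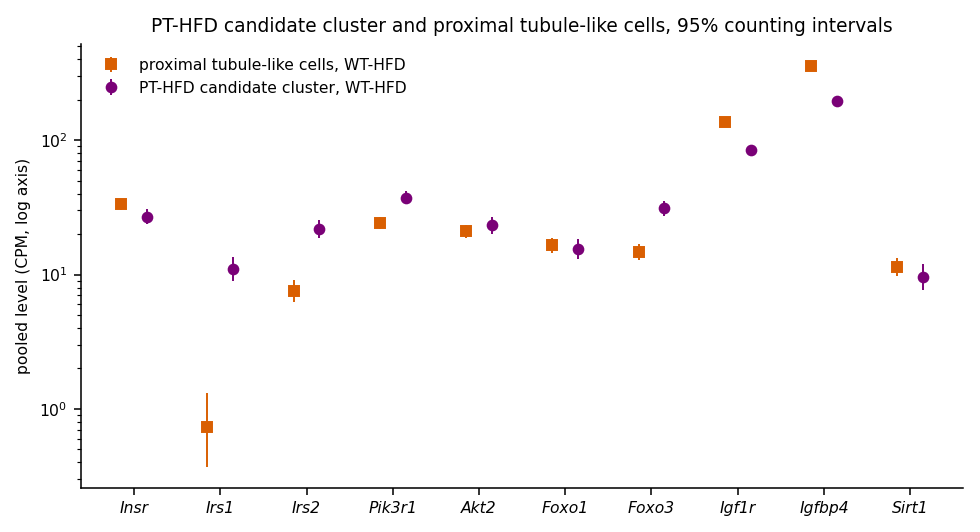
Levels of the 10 members in WT-HFD (CPM, logarithmic vertical axis) in proximal tubule-like cells (squares) and in the PT-HFD candidate cluster (circles), with exact 95% Poisson counting intervals. Irs1 is 0.735 CPM in the former and 11.1 CPM in the latter, and Igf1r and Igfbp4 are lower in the candidate.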

How the data were processed

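Single-cell suspensions of whole kidney had been run with 10x 3′ chemistry. The authors deposited unnormalized UMI counts per gene and barcode; the file headers name Cell Ranger 6.1.2, the submitters' processing notes 2.1.1 and mm10, and which holds was not settled. Barcodes with 200 to 5000 genes and under 50% mitochondrial UMIs were kept, doublets were scored against simulated ones and removed at 0.8% per 1000 cells, and cells were integrated and clustered (Seurat 5.3.0, R 4.3.3; resolution 0.5), giving 34 clusters, 27 of them named from markers. UMIs were summed per class and library (Python 3.11.15, scipy 1.17.1), with exact Poisson intervals for levels and exact binomial intervals for ratios. No test was run, as each condition has 1 library. The script was tested on simulated data.

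The members, marker and pathway lists were chosen with earlier results of these data known; the naming rule for clusters, the early response list and 3 alternatives that leave out a cluster were chosen after seeing the data. Of each list, genes past 1.5-fold in proximal tubule-like cells, or in 3 or more classes in 1 direction, were named, at most 6. Alternatives covered mitochondrial, UMI and doublet limits, integration, resolution, scaling, averaging over cells and free RNA.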

Additional observations from a re-analysis of the deposited data

Results flagged for a closer look

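Of 200 pairs of ratios compared, 5 had opposite signs with both counting intervals clear of 0. The differences were not tested, since each ratio rests on 1 library per group. Between diets, Irs2 in podocyte-like cells was at 1.18 in WT and -0.48 in SP on the log2 scale of HFD over ND. Pik3r1 in thick ascending limb-like cells was at -0.53 in WT and 0.31 in SP. Igfbp4 in endothelial cell-like cells was at -0.37 in WT and 0.42 in SP, and its small Cytl1-led cluster had -0.78 and 0.50.

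Between genotypes, Igfbp4 in endothelial cell-like cells was at -0.50 for SP over WT on ND and at 0.29 on HFD. Pik3r1 in thin limb-like cells was at -0.55 on ND and 0.50 on HFD. These ratios use the same 4 libraries as the diet ratios, so they are not further evidence.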

How the results depend on the processing

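The counts of members at least 1.5-fold apart were 13 and 13 for diet in WT and SP, 16 and 14 for SP against WT on ND and HFD, and 6 for the candidate. Requiring 100 UMIs left 8 for diet in SP, 10 on ND and 7 on HFD, with fewer pairs read. A 2-fold limit left 7, 5, 10, 9 and 3. Averaging CPM over cells, which has no counting interval to pass, gave 27, 21, 26 and 32 for the 4 library comparisons. Of 98 ratios under 12 settings, 1 reversed: Igfbp4 in intercalated cell-like cells, HFD against ND in WT, at -0.39 without integration. Without integration 12 more moved, of which Irs2 and Sirt1 in principal cell-like cells and Igfbp4 on HFD are given in the report; the principal cell-like class was then 1 cluster of 379 cells, and for the others the cause was not tested. Averaging over cells moved 16, subtracting free RNA 7 of 88, and the limit of 30% mitochondrial UMIs 6. No paired analysis was possible because each condition has 1 library and no test was run. For the same reason no replicate could be left out, and spread between animals is unknown. Low UMI counts limit Irs1 in proximal tubule-like cells and all members in neutrophil-like cells.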
